A study of Mus musculus with 32 samples.

Results

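The last age step in wild-type (WT) forebrain microglia, 8 months against 6 months, was examined across all 18588 genes of the deposited table. It rests on 7 of the 32 libraries of the series: replicates 1 to 4 of WT mice at 6 months and replicates 1 to 3 of WT mice at 8 months, chosen by genotype, age and quality control. These libraries and the gene lists used below were chosen with earlier results of these data known. Replicate 4 of WT at 8 months failed the sequencing quality control of the authors and was left out, and its values are given beside the others where they bear on a result. The WT animals were female littermates of the rTg4510 line that carried no transgene, with the strain given as 129/FVB F1. Each library came from the pooled forebrains of 8 to 10 animals, from which CD11b-positive cells had been captured on magnetic beads, so a library is an average over animals and the spread between libraries is a spread between pools. The groups set beside them were WT at 2 and 4 months and rTg4510 at 6 and 8 months, a line that expresses mutant human tau postnatally in forebrain neurons and that served as the tau model of the study.

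Microglia are the resident macrophages of the brain. They are kept in their mature state by signalling through the receptor Csf1r, and they sense their surroundings through receptors such as Cx3cr1, which binds the neuronal chemokine fractalkine, and P2ry12 and P2ry13, which bind adenine nucleotides. CD11b, the product of Itgam, is shared by microglia and other myeloid cells, and myelin debris, vessel fragments and other cells can remain beside the captured cells in any bead preparation. Transcripts of astrocytes, oligodendrocytes, neurons, vessel cells and choroid plexus were therefore read together with those of microglia. Fewer cells of a type and less RNA per cell cannot be told apart in such bulk libraries.

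The values are log2 gene signals, normalized by the authors so that every library has the median 5.63, and differences are given as log2 fold change, 8 months minus 6 months, with the standard error (SE) of a linear model over the 28 libraries that passed quality control. Read totals per library are not part of the deposited table, so the depth behind a value is unknown and the number of libraries limits the precision. A gene listed at the lowest value of its library, which lay between 1.59 and 1.81 at 6 months, has no measured level, and a difference that starts there has no firm size. The capture marker Itgam was present in all 7 libraries, at 9.66, 9.75, 9.69 and 9.80 at 6 months and 9.39, 9.57 and 9.66 at 8 months. None of the 18 members of the microglia identity list was at the lowest value in any library, so the label of the cells was met by its markers.

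No gene passed the threshold of the study, a false discovery rate (FDR) under 0.05 and a change above 1.5 fold, between 6 and 8 months in WT microglia (0% of 18588 genes, in the linear model fitted with limma and adjusted after Benjamini and Hochberg). No gene passed on the FDR alone either, and the lowest FDR was 0.249, shared by 67 genes. At an unadjusted p under 0.05 there were 1818 genes, 9.78% of all, of which 715 were higher at 8 months (3.85%) and 1103 lower (5.93%). The moderated test of limma also called 0 genes, with 1787 at an unadjusted p under 0.05. The size of the differences was small beside their error, with a median absolute log2 fold change of 0.14 and a median SE of 0.18.

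The libraries of the ages did not overlap for 1593 genes, 8.57% of all. For 573 of these (3.08%) the 3 libraries of 8 months all lay above the 4 of 6 months, and for 1020 (5.49%) all lay below. Across all genes 61.6% were lower and 38.4% higher at 8 months, with a median log2 fold change of -0.05. This balance depended on the centring of the libraries: with each library centred on the median of the genes of above-median signal, 52.4% were higher and the median was 0.01. The direction went with the level of a gene. In the lowest 25% of genes by mean signal, 7.17% were higher without overlap and 3.31% lower, and in the highest 25% 0.646% were higher and 6.82% lower. The plot of all genes shows this as a fan of large positive differences among genes of low signal, and a narrow band just under 0 among genes of high signal.

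**Figure D1:**
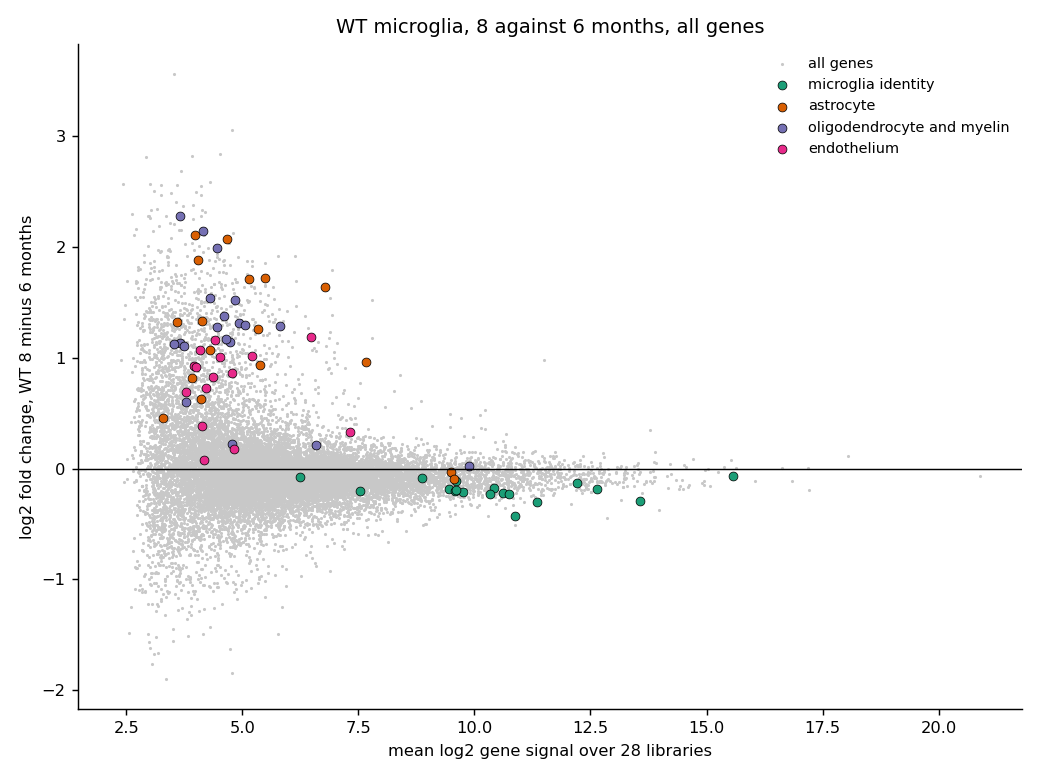
Each grey point is 1 of 18588 genes, with the mean log2 signal over 28 libraries on the horizontal axis and the log2 fold change, WT 8 minus 6 months, on the vertical axis; coloured points are the members of 4 cell type lists. The 18 microglia identity genes lie under 0, and the astrocyte, oligodendrocyte and endothelial genes lie mostly above 0 at lower signal.

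All 18 listed microglia identity genes had a negative difference at 8 months (61.6% of all genes did), from -0.43 to -0.06 with a median of -0.20. None passed the FDR, 11 were lower at an unadjusted p under 0.05 (5.93% of all genes) and 4 were lower without overlap (5.49% of all genes). The count of 4 was 17 without replicate 3 of 8 months, 8 without replicate 1 of 6 months and 0 with the replicate left out added. Among all genes the count lower without overlap, 1020, was 3037, 1598 and 362 in the same order. The mean log2 signal of the list was 10.56, 10.71, 10.63 and 10.59 in the libraries of 6 months and 10.36, 10.35 and 10.57 at 8 months, so replicate 3 of 8 months lay inside the range of 6 months. The replicate left out after quality control was at 10.56. On the linear scale the summed signal of the list ran from 85782 to 100542 at 6 months and from 76658 to 86672 at 8 months. The median log2 fold change of -0.20 depended on the scaling. It was -0.129 under quantile normalization, -0.135 with centring on genes of above-median signal and -0.126 with the replicate left out added.

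The largest difference of the list was that of P2ry13, an ADP receptor. Its signal was 11.23, 11.55, 11.39 and 11.34 at 6 months and 10.81, 10.91 and 11.14 at 8 months, which differ by -0.43 ± 0.11 (SE; unadjusted p = 0.00064, FDR = 0.249). The groups did not overlap, while the replicate left out was at 11.59, above every library of 6 months. Tmem119, a surface protein used as a marker of resident microglia, was at 11.87, 11.77, 11.77 and 11.60 at 6 months and 11.50, 11.27 and 11.58 at 8 months (-0.31 ± 0.11). Trem2, a lipid receptor that signals through Tyrobp, stood at 10.39, 10.57, 10.49 and 10.52 against 10.19, 10.21 and 10.38 (-0.23 ± 0.08). The other gene of the list without overlap was Itgam, at -0.18 ± 0.06. In each of these the library closest to the 6-month range was replicate 3 of 8 months.

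For the other microglia receptors the groups overlapped. Cx3cr1 was at 13.76, 14.03, 13.98 and 13.83 at 6 months and 13.56, 13.49 and 13.79 at 8 months, and its log2 fold change was -0.29 ± 0.11. Siglech, a sialic acid binding lectin, differed by -0.23 ± 0.07, and P2ry12 by -0.22 ± 0.10. The transcription factor Spi1 differed by -0.21 ± 0.10, and Csf1r by -0.13 ± 0.06.

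Across the WT ages the mean of the list was 10.74 ± 0.07 (SD) over the 4 libraries of 2 months and 10.63 ± 0.10 over the 3 kept ones of 4 months. It was 10.62 ± 0.07 (SD, n = 4) in those of 6 months and 10.42 ± 0.13 (SD, n = 3) in those of 8 months. The 2 lowest libraries of the WT series were replicates 1 and 2 of 8 months, and replicate 3 of 8 months was within the range of 4 and 6 months. In rTg4510 the same list stood at 10.36 ± 0.07 in the 4 libraries of 6 months and 10.15 ± 0.06 in the 3 of 8 months.

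**Figure D2:**
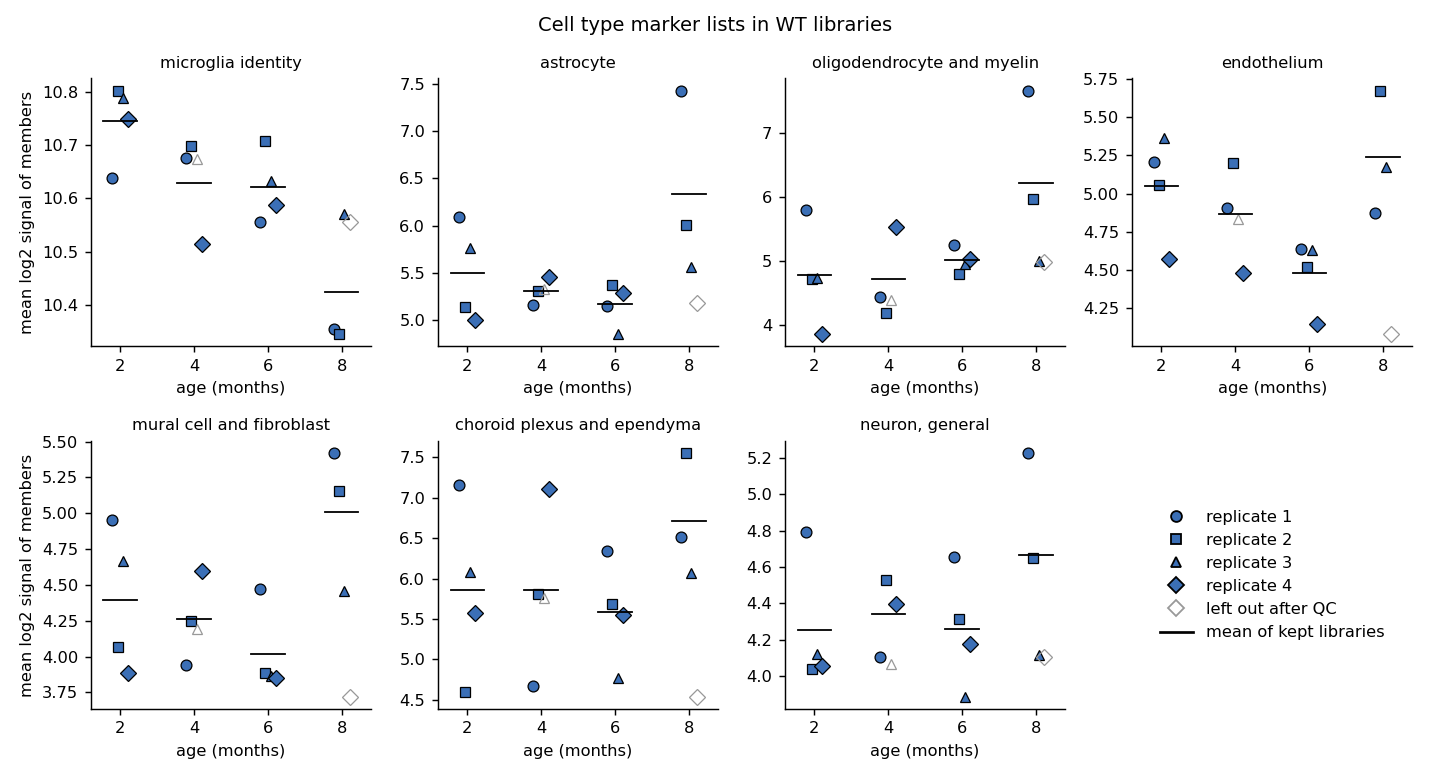
Each point is a WT library, with age in months on the horizontal axis and the mean log2 signal of a list's members on the vertical axis, which has its own range in each panel; open grey points are libraries left out after quality control and bars are means of the kept libraries. Replicate 1 of 8 months is the highest point for astrocyte (7.43) and oligodendrocyte genes (7.66), and replicate 2 for endothelium (5.67) and choroid plexus (7.55).

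Lists of glia, vessel cells and choroid plexus had positive medians, unevenly spread over the 3 libraries of 8 months, and neuron lists differed among themselves. Replicate 1 or replicate 2 had the highest median of the astrocyte, oligodendrocyte, endothelial, mural, choroid plexus and general neuron lists, and both had lower medians of microglia identity than replicate 3. The part of these genes in the microglial differences was not tested. The astrocyte list had a median log2 fold change of 1.27 and the oligodendrocyte and myelin list one of 1.28, against -0.05 over all genes. The list of mural cells and fibroblasts stood at 1.15, that of choroid plexus and ependyma at 1.16, the endothelial list at 0.87 and the general neuron list at 0.46. For lists with few measured genes, the median was 1.15 for oligodendrocyte precursors (4 genes), 1.13 for inhibitory and striatal neurons (4 genes) and -8.3e-05 for excitatory neurons (3 genes, of which 1 was higher and 2 lower). No member of any of these lists passed the FDR. In the lowest 25% of genes by mean signal 7.17% were higher without overlap, against 3.08% of all genes. Among genes above the 25th percentile 240 of all genes were, against 573. Members without overlap were then 5 for astrocyte, 1 for oligodendrocyte and 4 for endothelium (7, 4 and 11 without this filter). They were 1 for mural cells and fibroblasts, 0 for choroid plexus and 2 for general neurons (6, 2 and 2). Replicate 1 of 8 months differed most from 6 months, with 448 genes more than 2 log2 units above the mean of 6 months, while replicate 2 had 161, replicate 3 had 34 and the replicate left out had 71. The SD between libraries was 0.97 at 8 months against 0.23 at 6 months for the astrocyte list, and 1.34 against 0.18 for the oligodendrocyte and myelin list. Each SE and p comes from 1 variance per gene pooled over 8 groups. For genes of these lists they can therefore understate the spread at 8 months.

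Of 17 astrocyte genes, 15 were higher at 8 months, 10 at an unadjusted p under 0.05 (3.85% of all genes) and 7 without overlap (3.08% of all genes). Replicate 1 of 8 months held the highest value of the 3 libraries for 15 of the 17. The mean of the list was 5.15, 5.37, 4.85 and 5.28 at 6 months and 7.43, 6.01 and 5.56 at 8 months, so that even the lowest library of 8 months was above all of 6 months. At 2 months the same list had been at 6.09, 5.14, 5.77 and 4.998, so 8 months overlapped with 2 months. The mean of 6 months, 5.17 ± 0.23 (SD, n = 4), was the lowest of the WT ages. The replicate left out, at 5.18, was within the range of 6 months. The summed linear signal ran from 2106 to 2353 at 6 months and from 2523 to 5524 at 8 months. Without replicate 1 the median log2 fold change of the list was 0.48.

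Gja1, which encodes the gap junction protein connexin 43 of astrocytes, was at 6.75, 6.68, 6.74 and 5.97 at 6 months and 10.09, 7.37 and 7.07 at 8 months (1.64 ± 0.60, unadjusted p = 0.013, FDR = 0.379). Slc1a2, the main glutamate transporter of the forebrain, was at 4.26, 4.04, 3.42 and 4.55 against 7.57, 5.12 and 5.15 (1.88 ± 0.54). In both, replicate 1 stood more than 2 log2 units above the other libraries of 8 months, and these still lay above 6 months. Sparcl1, a secreted protein that promotes synapse formation, was tight at 6 months, at 4.90, 4.83, 4.79 and 4.72, and was at 7.77, 6.44 and 5.36 at 8 months (1.71 ± 0.44, unadjusted p = 0.00082). Aqp4, the water channel of astrocyte endfeet, was at 7.67, 7.79, 7.66 and 8.05 against 9.78, 8.23 and 8.27 (0.96 ± 0.45).

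The growth factor receptor Fgfr3 (2.07 ± 0.74), the neurotensin receptor Ntsr2 (2.11 ± 0.87) and the connexin gene Gjb6 (1.72 ± 0.67) were higher without overlap as well. Gfap, the intermediate filament of reactive astrocytes, was low throughout and overlapped, at 2.33 to 4.01 at 6 months and 3.70 to 3.90 at 8 months (0.63 ± 0.33). The 2 members that were lower were those of the highest signal, the glutamate transporter gene Slc1a3 (-0.10 ± 0.08) and Glul, which encodes glutamine synthetase (-0.03 ± 0.09). The sign of Glul turned under quantile normalization (0.06) and under centring on genes of above-median signal (0.03).

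All 19 oligodendrocyte and myelin genes were higher at 8 months (38.4% of all genes were), 4 with an unadjusted p under 0.05 (3.85% of all genes) and 4 without overlap (3.08% of all genes), a count that was 17 without replicate 3 of 8 months. Without that replicate the count higher without overlap among all genes was 1436, against 573 with it. The list mean was 5.24, 4.80, 4.96 and 5.04 at 6 months and 7.66, 5.97 and 5.004 at 8 months. Replicate 3 was thus within the range of 6 months, replicate 2 was above it, and replicate 1 stood highest for 18 of the 19 genes. The replicate left out was at 4.98. In this list the mean of 6 months, 5.01, was above those of 2 and 4 months, 4.77 and 4.72. Without replicate 1 the median of the list was 0.42, and the median difference of replicate 3 from the mean of 6 months was -0.13. The summed linear signal of the list ran to at most 1559 at 6 months and from 1390 to 4762 at 8 months.

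Mbp, myelin basic protein, was at 5.48, 4.58, 5.18 and 4.33 at 6 months and 7.67, 5.77 and 5.13 at 8 months (1.30 ± 0.51). For this gene replicate 3 of 8 months lay among those of 6 months. The lineage transcription factor Olig2 was at 3.04, 3.33, 2.81 and 3.87 against 6.96, 5.43 and 4.24, and these did not overlap (2.28 ± 0.91). Its values of 6 months were low, so the size is uncertain. Sox10, another transcription factor of the lineage, was at 4.32, 4.01, 4.65 and 3.24 against 8.13, 5.52 and 4.95 (2.15 ± 1.06), and here the replicate left out was also high, at 6.07. The myelin protein gene Mal differed by 1.52 ± 0.58, and replicate 3 of 8 months, at 5.11, was just above the highest of 6 months, at 5.04. Mog, a protein of the outer myelin surface, overlapped (1.13 ± 0.77). Trf, the transferrin gene, had the highest signal of the list and differed by 0.03 ± 0.05, with a sign that turned when the replicate left out was added (-0.02).

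Endothelial genes followed another library. All 15 endothelial genes were higher at 8 months, 11 without overlap (3.08% of all genes) and 10 with an unadjusted p under 0.05 (3.85% of all genes). The list mean was 4.64, 4.52, 4.63 and 4.14 at 6 months and 4.87, 5.67 and 5.18 at 8 months, with replicate 2 highest for 12 genes and replicate 1 lowest for 13. The replicate left out stood at 4.08, below all 7 libraries. At 2 months the same list had been at 5.20, 5.05, 5.36 and 4.57, so 8 months overlapped with 2 months, and the mean of 6 months, 4.48 ± 0.23 (SD, n = 4), was the lowest of the WT ages. Without replicate 2 the median of the list was 0.55, and with the replicate left out added it was 0.48, with 1 gene without overlap. That addition took the count higher without overlap among all genes from 573 to 175.

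Flt1, a receptor of vascular endothelial growth factor, was at 4.59, 4.30, 3.99 and 3.70 at 6 months and 4.78, 5.80 and 4.90 at 8 months (1.02 ± 0.26, unadjusted p = 0.00094, FDR = 0.253). Cldn5, the tight junction claudin of the blood-brain barrier, was at 6.36, 6.20, 6.54 and 5.15 against 6.68, 7.80 and 7.27 (1.19 ± 0.54). Slc2a1, the glucose transporter of the barrier, was higher by less, 0.33 ± 0.12, from 6.95 to 7.06 at 6 months to 7.18 to 7.61 at 8 months. None of these 3 genes overlapped between the ages. The membrane protein gene Itm2a (1.16 ± 0.32), the efflux pump gene Abcb1a (1.07 ± 0.33), the phosphatase gene Ptprb (1.01 ± 0.36) and Ly6c1 (0.87 ± 0.37) were also higher without overlap. Pecam1, an adhesion molecule that is also made outside endothelium (0.18 ± 0.15), and Kdr, the other receptor of this growth factor (0.08 ± 0.19), overlapped. The sign of Kdr turned under quantile normalization (-0.04).

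Of 16 genes of mural cells and fibroblasts, 15 were higher at 8 months, 10 with an unadjusted p under 0.05 (3.85% of all genes) and 6 without overlap (3.08% of all genes). With the replicate left out added the median went from 1.15 to 0.71 and the count without overlap to 1, and without replicate 3 of 8 months that count was 12. Among all genes the count higher without overlap, 573, was 175 and 1436 in the same order. The list mean was 4.47, 3.88, 3.86 and 3.85 at 6 months and 5.42, 5.16 and 4.46 at 8 months, so the lowest library of 8 months was level with the highest of 6 months. At 2 months the list had been at 4.95, 4.07, 4.67 and 3.89, so 8 months overlapped with 2 months. The mean of 6 months, 4.02 ± 0.30 (SD, n = 4), was the lowest of the WT ages. Rgs5, a pericyte regulator of G protein signalling, was at 4.42, 4.74, 4.59 and 5.37 against 5.73, 6.38 and 5.87 (1.21 ± 0.42), and the replicate left out was at 3.79. Vtn, vitronectin, was at 4.73, 4.25, 3.80 and 3.86 against 6.07, 5.14 and 4.78 (1.17 ± 0.36). Acta2, smooth muscle actin, was at 5.38, 4.44, 4.46 and 3.60 against 7.47, 6.49 and 5.08, with an overlap at replicate 3 (1.88 ± 0.58). The proteoglycan gene Dcn (1.05 ± 0.34) and the collagen gene Col1a1 (1.38 ± 0.49) did not overlap. Among 19 genes of extracellular matrix and adhesion, the median was 0.16, and 5 were higher (3.85% of all genes) and 2 lower (5.93% of all genes) at an unadjusted p under 0.05. The higher ones included the basement membrane genes Lamb1 (1.29 ± 0.44) and Col4a1 (1.20 ± 0.44) and fibronectin, Fn1 (0.70 ± 0.19), the first and last without overlap.

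All 10 measured genes of choroid plexus and ependyma, of 12 listed, were higher at 8 months, with 2 at an unadjusted p under 0.05 (3.85% of all genes) and 2 without overlap (3.08% of all genes). The list mean ran from 4.77 to 6.34 at 6 months and from 6.06 to 7.55 at 8 months, and reached 7.15 at 2 months and 7.11 at 4 months. The mean of 6 months, 5.59 ± 0.65 (SD, n = 4), was the lowest of the WT ages. The median of 1.16 was 0.66 without replicate 2 of 8 months and 0.46 with the replicate left out added, when 0 genes were without overlap. The count of 2 was 7 without replicate 1 of 6 months and 4 without replicate 3 of 8 months. Among all genes the count higher without overlap, 573, was 1014 and 1436 in the same order, and 175 with the replicate left out added. Ttr, the transthyretin gene that choroid plexus transcribes at high level, was at 12.12, 11.23, 10.58 and 11.48 at 6 months and 11.97, 13.44 and 11.59 at 8 months (0.98 ± 0.73). It was at 9.74 in the replicate left out, under all 7 libraries. Enpp2, the gene of autotaxin, and Kl, the gene of klotho, had the same order of libraries as Ttr at 8 months, with replicate 2 highest, and differed by 1.18 ± 0.73 and 1.20 ± 0.73. Foxj1, the master transcription factor of motile cilia, was at 3.93, 4.33, 2.81 and 2.39 against 6.00, 5.79 and 5.32, and did not overlap (2.34 ± 0.68). The values of 2.81 and 2.39 were not far above the lowest of a library, so the size is uncertain.

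Of 22 general neuron genes 17 were measured, and 14 were higher and 3 lower at 8 months, with 1 at an unadjusted p under 0.05 (3.85% of all genes) and 2 without overlap (3.08% of all genes), so the first count was near that of all genes. The list mean was 4.66, 4.31, 3.89 and 4.17 at 6 months and 5.23, 4.65 and 4.12 at 8 months, which overlapped. The growth-associated gene Stmn2 was at 3.99, 4.13, 2.72 and 3.27 against 4.69, 5.42 and 3.83 (1.12 ± 0.48). Snap25, a protein of synaptic vesicle fusion, overlapped (0.58 ± 0.49), and so did the synapsin gene Syn1, which was lower (-0.26 ± 0.27). Snhg11, a long noncoding RNA of neurons, was higher without overlap by 0.46 ± 0.49. Of 20 glutamate synapse genes 12 were measured and 10 were higher, and the receptor subunit gene Gria2 was at 3.53, 3.57, 3.17 and 3.56 against 6.75, 3.90 and 3.94 (1.40 ± 0.56). The median of the general neuron list, 0.46, was 0.08 without replicate 1 of 8 months, 0.23 without replicate 3 of 6 months and 0.16 with the replicate left out added, when 0 genes were without overlap. Among genes above the 25th percentile of mean signal it was 0.0042.

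**Figure D3:**
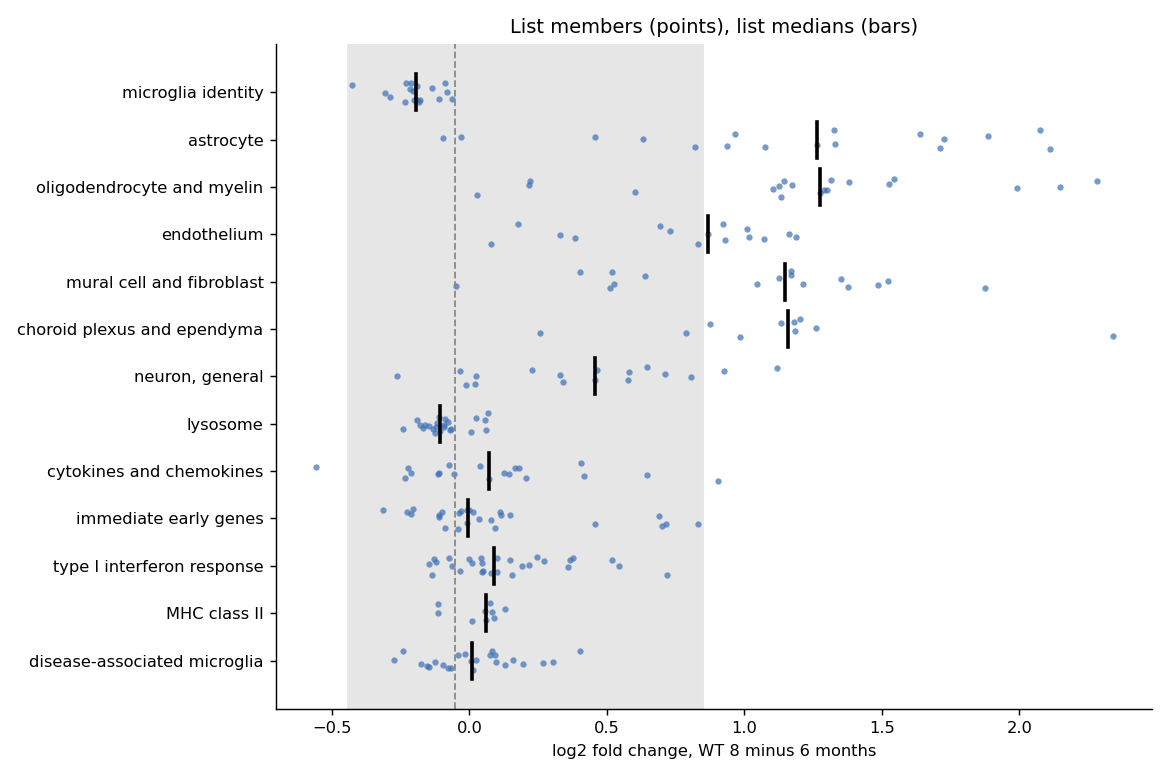
Each blue point is a gene, with its log2 fold change, WT 8 minus 6 months, on the horizontal axis and its list on the vertical axis; black bars are list medians, the dashed line is the median of all genes (-0.05) and the grey band runs from the 5th to the 95th percentile of all genes (-0.44 to 0.85). The medians of the astrocyte, oligodendrocyte, endothelial, mural and choroid plexus lists lie beyond the band, and the medians of the microglial and immune lists lie inside it.

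The largest single increases described here were in genes outside the cell type lists. None passed the FDR, and they are those with an unadjusted p under 0.01 and no overlap. The first was Dlx6os1, a long noncoding RNA transcribed at the Dlx5 and Dlx6 genes of forebrain interneurons. It was at 1.81, 3.01, 1.59 and 1.65 at 6 months, where 3 libraries were at their lowest value, and at 7.76, 5.07 and 3.90 at 8 months (3.56 ± 0.86, unadjusted p = 0.00048, FDR = 0.249). Cntnap2, a neuronal adhesion protein of the axon, had the same 4 values at 6 months and was at 4.75, 4.98 and 4.75 at 8 months (2.81 ± 0.65). Since 3 of the 4 libraries of 6 months were at the lowest value for both genes, the sizes are not firm.

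Aoc3, a vascular amine oxidase of smooth muscle, was at 4.32, 4.09, 2.33 and 2.65 at 6 months and 7.58, 6.24 and 5.39 at 8 months (3.06 ± 0.76). Casq2, a calsequestrin that stores calcium in muscle cells, was at 3.81, 3.59, 1.59 and 3.39 against 6.17, 5.82 and 5.83 (2.84 ± 0.66). For Casq2 the 3 libraries of 8 months lay close together, and for Aoc3 replicate 1 was the highest. Casq2 was at the lowest value of its library in replicate 3 of 6 months, so its size is not firm. The values of 2.33 and 2.65 for Aoc3 were not far above the lowest, so that size is uncertain. Sox2ot, a long noncoding RNA around Sox2, was at 4.33, 3.86, 2.75 and 3.44 against 7.76, 5.52 and 5.004 (2.49 ± 0.82), and Miat, another long noncoding RNA, at 3.40, 4.18, 3.17 and 3.24 against 7.60, 4.84 and 5.45 (2.47 ± 0.77). Pou3f3, a transcription factor of neural progenitors and neurons, was at 2.81 to 3.24 at 6 months and 4.32 to 6.64 at 8 months (2.34 ± 0.79). All its values of 6 months were not far above the lowest, so its size is uncertain as well.

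The other 7 of the 14 largest increases described ran from 2.37 to 2.57. They were Sytl4 of vesicle trafficking, Fam131b, the RNA-binding protein gene Rbm24, the GTPase-activating protein gene Arhgap42, the potassium channel subunit Kcne4, the scaffold gene Mpdz and Epdr1. For all of these but Epdr1, 1 or more libraries of 6 months were at the lowest value, so their sizes are not firm. Replicate 1 was the highest of 8 months for 13 of the 14 genes. The replicate left out lay above every library of 6 months for 8 of the 14, within their range for 5 and below it for 1.

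**Figure D4:**
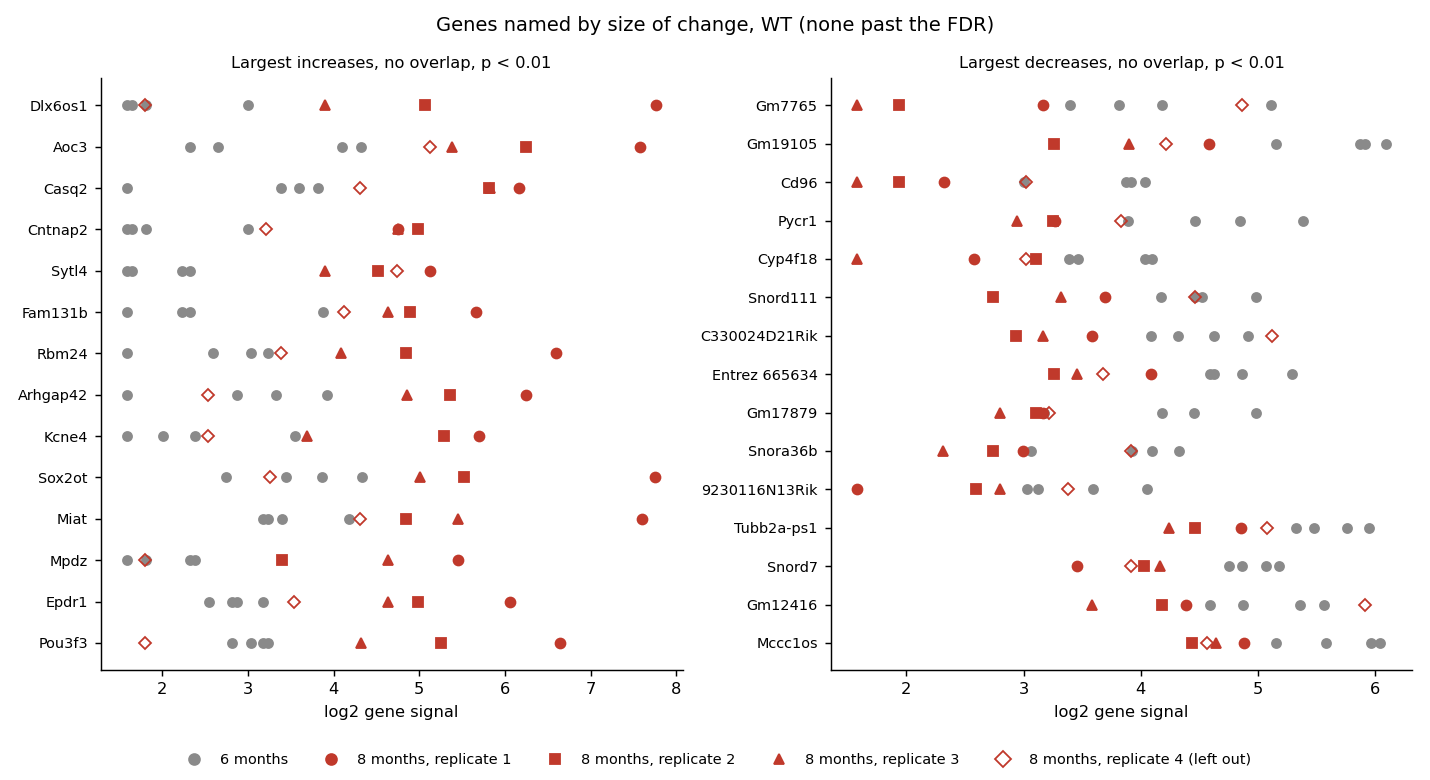
Each row is a gene and each symbol a WT library, with the log2 gene signal on the horizontal axis; grey is 6 months, filled red 8 months by replicate and open red the replicate left out. By construction the filled red symbols do not overlap with grey, and replicate 1 is the highest library of 8 months for most of the increases.

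The largest decreases were smaller, from -1.90 to -1.03, and none passed the FDR. Pycr1, an enzyme of proline synthesis, was at 3.89, 4.46, 5.38 and 4.85 at 6 months and 3.27, 3.25 and 2.95 at 8 months (-1.49 ± 0.31, unadjusted p = 0.00010, FDR = 0.249), with the replicate left out at 3.83. Cd96, a receptor of T and NK cells, was at 4.04, 3.91, 3.004 and 3.87 against 2.32, 1.94 and 1.58 (-1.76 ± 0.51), the last being the lowest value of its library. Cyp4f18, a leukotriene hydroxylase of myeloid cells, differed by -1.32 ± 0.44. The small nucleolar RNA genes Snord111 (-1.28 ± 0.38), Snora36b (-1.17 ± 0.38) and Snord7 (-1.08 ± 0.29) were lower without overlap. They lie within host genes, and how reads were shared with the hosts is not given in the sources used here. Among the 15 were 5 pseudogenes, Gm7765, Gm19105, Gm17879, Tubb2a-ps1 and Gm12416, whose reads may be shared with near-identical copies, so their values are uncertain. The other 4 were the noncoding transcripts C330024D21Rik, 9230116N13Rik and Mccc1os and a feature without a current RefSeq symbol. The smallest unadjusted p values of all genes, in the limma fit, were those of the pseudogene Gm6192 (-0.94 ± 0.18, FDR = 0.249) and of Snrpf, a core spliceosome protein (-0.65 ± 0.13, FDR = 0.249). Both were named after their values were seen.

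Lists of immune and activation genes had medians near 0. The 28 genes of the type I interferon response had a median of 0.09, 24 disease-associated microglia genes one of 0.01, 9 MHC class II genes 0.06, 12 complement genes -0.02 and 19 cytokine and chemokine genes 0.07. The cytokine and chemokine genes ran from -0.56 for Il12b (± 0.37, with an overlap) to 0.91 for Il1b, and at an unadjusted p under 0.05 1 was higher (3.85% of all genes) and 2 lower (5.93% of all genes). Il1b, the pro-inflammatory cytokine interleukin 1 beta, was at 6.14, 5.80, 6.04 and 5.96 at 6 months and 6.85, 7.44 and 6.38 at 8 months, which differ by 0.91 ± 0.25 (unadjusted p = 0.0020, FDR = 0.304), and the groups did not overlap. The replicate left out was at 6.27, also above 6 months. The 2 lower genes were Il18, a cytokine of the interleukin 1 family, without overlap (-0.23 ± 0.10), and Tgfb1, a cytokine that maintains microglia, with an overlap (-0.22 ± 0.10). Ifit3b, an interferon-induced gene with a near-identical copy, was at 6.53, 6.33, 6.27 and 5.97 against 7.07, 7.18 and 6.72 (0.72 ± 0.24).

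Of 26 immediate early genes, transcription factors switched on within minutes of stimulation, 5 were higher at an unadjusted p under 0.05 (3.85% of all genes) and the median was -0.0047. These included the nuclear receptor genes Nr4a1 (0.70 ± 0.24) and Nr4a2 (0.83 ± 0.31) and the zinc finger gene Egr3 (0.69 ± 0.25). Nr4a2 was at 3.69, 3.34, 3.73 and 3.56 against 4.16, 4.97 and 4.10, without overlap, whereas Nr4a1 and Egr3 overlapped. All 3 genes were also above the 6-month range in the replicate left out, at 4.41, 8.07 and 5.68 for Nr4a2, Nr4a1 and Egr3. Pdk4, a kinase that restrains pyruvate oxidation and a glucocorticoid target, was at 4.04, 3.71, 3.33 and 1.65 against 5.32, 5.11 and 4.85 (1.91 ± 0.76). The value of 1.65 was the lowest of its library, so the size is not firm.

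Lysosomal and ribosomal genes were mostly lower, by small amounts. Across all genes 61.6% were lower, with a median of -0.05. Centring each library on genes of above-median signal moved the median of all genes to 0.01. The lysosomal and ribosomal lists were not recomputed with that centring. Of 23 lysosomal genes 18 were lower, 7 with an unadjusted p under 0.05 (5.93% of all genes) and 5 without overlap (5.49% of all genes), with a median of -0.11. Lamp1, a lysosomal membrane protein, was at 10.55, 10.49, 10.65 and 10.59 against 10.32, 10.39 and 10.46 (-0.18 ± 0.05). The scavenger receptor Cd68 was at 10.83, 10.94, 11.05 and 11.01 against 10.58, 10.78 and 10.78 (-0.24 ± 0.09), and the protease Lgmn differed by -0.16 ± 0.05 with an overlap. In the replicate left out Lamp1 was at 11.06 and Cd68 at 11.34, above every library of 6 months. Of 86 cytosolic ribosomal protein genes 82 were lower (61.6% of all genes were), with a median of -0.12. At an unadjusted p under 0.05 7 were lower (5.93% of all genes). Without overlap 5 were lower (5.49% of all genes), among them Rpl14 (-0.25 ± 0.08), so this count was near that of all genes. Of the 4 cytosolic ribosomal genes that were higher, Rpl3l, a muscle form of a ribosomal protein, differed most. It was at 2.55, 2.33, 2.00 and 3.39 against 4.64, 3.84 and 3.69 (1.49 ± 0.41), and the low values of 6 months leave this size uncertain. The 78 mitochondrial ribosomal genes had a median of -0.12. The 83 nuclear genes of the respiratory chain had one of -0.05, near that of all genes, with the carrier protein gene Ndufab1 at -0.29 ± 0.08.

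Among the lists of blood and border cells the red blood cell list (4 of 7 genes measured) had a median of 0.90, with Hba-a1 at 5.82, 4.81, 4.88 and 4.28 against 7.25, 5.95 and 4.88 (1.08 ± 0.71), which overlapped. Alpha globin is encoded by near-identical copies, so its value is uncertain. The B cell list (8 of 11 genes measured) had a median of 0.49, with 5 genes higher and 3 lower. The medians of the border macrophage, monocyte, neutrophil, and T and NK cell lists were -0.01, 0.12, 0.22 and 0.19. S100a9, a calcium-binding protein of neutrophils, overlapped at 7.20 to 8.16 and 7.98 to 8.19 (0.36 ± 0.38), and the T cell receptor component Cd3e was listed at the lowest value in 1 library of each age.

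The calls changed with the library left out. Without replicate 3 of 8 months 6 genes passed both thresholds, and without any of the other 6 libraries none did. The 6 genes, named after their values were seen, were Sparcl1, Prnp, Nhsl1, Pcdh18, Gstm1 and Zbtb1. Prnp, the prion protein gene, was at 7.11, 6.51, 7.07 and 7.01 at 6 months and 9.76, 8.40 and 7.18 at 8 months, and its log2 fold change went from 1.52 (FDR = 0.249) to 2.15 (FDR = 0.022). Nhsl1 went from 1.83 to 2.36, Pcdh18, a protocadherin, from 1.47 to 2.03, and Sparcl1 from 1.71 to 2.29. Gstm1, a glutathione transferase, went from 0.43 to 0.72. Zbtb1, a zinc finger repressor, was at 7.71, 7.91, 7.75 and 7.91 against 7.15, 6.80 and 7.93, and went from -0.53 to -0.84. In each of the 6, replicate 3 of 8 months was the one nearest to 6 months. This follows largely from the choice, since they were picked by the removal of that library.

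The step was set beside the same step in rTg4510, where 1 gene passed both thresholds (0.00538% of genes) and 14.4% of genes had an unadjusted p under 0.05. The test of the difference between the 2 genotypes called 0 genes, with 841 (4.52%) at an unadjusted p under 0.05. With same-numbered libraries of an age taken as pairs it also called 0, with 1068 at an unadjusted p under 0.05. The lowest FDR of this difference was 0.051 with the pairs, just above the threshold, and 0.347 without them. The lists of other cells were higher at 8 months in rTg4510 too, with medians of 0.91 for astrocyte, 1.44 for oligodendrocyte and myelin, 0.87 for endothelium, 1.10 for mural cells and fibroblasts and 1.94 for choroid plexus and ependyma, and microglia identity had a median of -0.24. Across all 18588 genes the log2 fold changes of the genotypes correlated with r = 0.53. This is across genes, which are not independent replicates, and although no library is shared, same-numbered libraries of the genotypes deviated together from their group means at 8 months (r of 0.15 to 0.29) and at 6 months (0.13 to 0.15). Il1b differed by 0.75 ± 0.25 in rTg4510, and P2ry13 by -0.26 ± 0.11. The part of library preparation in these differences was not tested.

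Against the 9.78% of genes at an unadjusted p under 0.05 from 6 to 8 months in WT, the share was 10.2% from 2 to 4 months, with 9 genes past both thresholds (0.0484%), and 8.65% from 4 to 6 months, with 1 gene. Over the whole span from 2 to 8 months, which uses the same libraries of 8 months, 236 genes (1.27%) passed both thresholds and 19.2% had an unadjusted p under 0.05.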

How the data were processed

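Labels gave the genotype, age and replicate number of the libraries, and the Methods of the study which 28 had been kept. RNA had been amplified with the Ovation system and sequenced by the authors, who summed exon reads, left out exons with under 10 counts in more than 80% of samples, combined exons to genes and median normalized the values. The deposited values are log2 gene signals. GRCm38 is the build named in the submitters' processing notes, and the aligner is not given in the sources used here. No column of values was left unused.

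A linear model per gene was computed in R 4.3.3 with limma 3.58.1. It had 8 group means and unmoderated variances (20 residual degrees of freedom), and gave the contrast of WT at 8 and 6 months and its difference from rTg4510, with Benjamini-Hochberg FDR over 18588 genes. No gene was filtered out. The model was tested on simulated data. List levels are means of members' log2 signals, and counts of no overlap compare the 3 libraries with the 4. Figures were drawn with matplotlib 3.10.9 in Python 3.11.15. RefSeq names of GRCm38.p6 were found for 95.9% of Entrez numbers.

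The members and the 40 gene lists were chosen with earlier results of these data known. Genes named were the 15 largest increases and 15 largest decreases past the thresholds without overlap, or else, as here, those with an unadjusted p under 0.01 and no overlap, members of the lists (those of highest signal where none passed), and genes said in the text to be chosen after their values were seen. Some genes that this rule names are not reported here. One list, of mitochondrially encoded respiratory chain genes, matched 0 genes. Same-numbered WT libraries of 6 and 8 months deviated with r of -0.13 to 0.07, so numbers were not taken to pair them; same-numbered WT and rTg4510 libraries of an age correlated above 0.1 in every pair, and the difference between genotypes was also fitted with these pairs. That labels name separate pools was taken from the Methods. Alternatives were other sets of libraries, scaling, variances, weights, filters, blocks and the removal of each library.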

Additional observations from a re-analysis of the deposited data

Results flagged for a closer look

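Among 124 named genes and lists, 9 had 1 of the 4 libraries of 6 months far from the others by Dixon's test, where chance gives about 1 in 20. Replicate 2 was high for Dlx6os1 and Cntnap2, at 3.01 for both, and for Rpl14, at 6.79, and low for Mal, at 4.21. Replicate 1 was low for Ntsr2, at 2.81, and high for the mean of the mural cell and fibroblast list, at 4.47. Replicate 3 was low for Cd96, at 3.004, and for Gria2, at 3.17, and replicate 4 was low for Gja1, at 5.97.

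The noncoding transcript 9230116N13Rik was lower in every WT library of 8 months than in any of 6 months and higher in every rTg4510 library of 8 months than in any of 6 months. The difference of the 2 changes was -1.67 on the log2 scale (unadjusted p = 0.0041), and no gene passed the FDR for this difference.

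In replicate 4 of WT at 8 months, which was left out of the comparisons of the report and entered only the alternatives with all 32 libraries or with it added, 3 of the 17 cell type lists had a mean log2 signal above every library of 6 months. These were the excitatory neuron list at 4.97, the B cell list at 6.96 and the red blood cell list at 5.51.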

How the results depend on the processing

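The count of 0 genes past both thresholds held with only the 7 libraries of both groups, the 14 WT libraries, all 32 libraries, quantile normalization, centring on genes of above-median signal, genes above the 25th percentile, moderated variance, library quality weights, no fold threshold, and with replicate 4 of WT at 8 months added, which was chosen after seeing the data. Leaving out each library in turn gave 0 to 6 genes, 0 to 5 higher and 0 to 1 lower, the upper values without replicate 3 of 8 months. The difference from rTg4510 stayed at 0 genes in every fit in which it was made. Why a count moved was not tested, except that leaving out libraries or adding them changes how many values must not overlap.

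Counts at an unadjusted p, counts without overlap and list values were added after seeing the data. With all 32 libraries 317 genes were higher and 301 lower at an unadjusted p under 0.05, against 715 and 1103. Counts without overlap were 175 higher and 362 lower, with all 32 libraries and with replicate 4 added, against 573 and 1020. Centring on genes of above-median signal left 486 genes lower at an unadjusted p under 0.05 and 563 lower without overlap. Genes above the 25th percentile gave 279 higher at this p and 240 higher without overlap. Without each library in turn there were 514 to 973 genes higher and 661 to 1747 lower at this p, the lowest number of lower genes without replicate 1 of 8 months and the highest without replicate 3, and 775 to 1436 higher and 1492 to 3037 lower without overlap.

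The numbers were not taken to pair WT libraries of 6 and 8 months. With the replicate block of 28 libraries and with the replicate block of 3 pairs of WT libraries 0 genes were called, and with the 3 pairs 384 were higher and 656 lower at an unadjusted p under 0.05 and 1581 lower without overlap. With age and number together as the replicate block, added after seeing the data, the difference from rTg4510 was called for 0 genes, with a lowest FDR of 0.051. No library of 6 or 8 months correlated above 0.1 with its own number in the other age.

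Of the 40 lists, 7 were recomputed, with all 32 libraries, replicate 4 added, quantile normalization, centring, genes above the 25th percentile, the 3 pairs and each library removed, and their medians kept their sign. With all 32 libraries and with replicate 4 added, medians were 0.46 for choroid plexus, 0.16 for neurons, 0.48 for endothelium and 0.71 for mural cells and fibroblasts, and members without overlap were 0 for microglia identity, 4 for astrocyte, 2 for oligodendrocyte and myelin, 1 for endothelium, 1 for mural cells and fibroblasts, 0 for choroid plexus and 0 for neurons. Among genes above the 25th percentile these were 1 for oligodendrocyte and myelin, 4 for endothelium, 1 for mural cells and fibroblasts and 0 for choroid plexus, and the neuron median was 0.0042. Quantile normalization left 1 microglia identity gene without overlap. Without each library in turn medians ran from -0.29 to -0.15 for microglia identity, 0.48 to 1.75 for astrocyte, 0.42 to 1.99 for oligodendrocyte and myelin, 0.55 to 1.09 for endothelium, 0.85 to 1.27 for mural cells and fibroblasts, 0.66 to 1.45 for choroid plexus and 0.08 to 0.68 for neurons. Members without overlap then ran from 4 to 17, 7 to 12, 4 to 17, 11 to 13, 6 to 12, 2 to 7 and 2 to 5 in the same order of lists.

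Among 107 named genes a sign turned for 3 outside the removal of single libraries. Quantile normalization gave 0.057 for Glul and -0.038 for Kdr, and centring on genes of above-median signal 0.030 for Glul. The 3 pairs gave -0.025 for Kdr, and all 32 libraries or replicate 4 added gave -0.020 for Trf. Without 1 library in turn the differences ran from -0.077 to 0.048 for Glul, -0.0098 to 0.075 for Trf and -0.12 to 0.29 for Kdr. With no read totals, depth cannot be weighed, and 3 libraries at 8 months limit every comparison.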
